A study of Mus musculus with 20 samples.

Results

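The genes described here are 10 transcripts that encode checkpoint ligands and regulatory surface molecules: Cd274 (PD-L1), Pdcd1lg2 (PD-L2), Icosl, Cd276 (B7-H3), Havcr2 (TIM-3), Cd83, Cd200, Cd200r1, Lgals9 (galectin-9) and Pvr (CD155). They were taken by symbol from the gene count table of bone marrow-derived dendritic cells (BMDCs), which lists 24421 genes. All 10 were listed, and 9 were among the 12465 genes with enough counts to be tested. Cd276 was not, at 0 to 13 counts per library.

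The study asked what I-BET151 (iBET), a small molecule that blocks the binding of BET bromodomain proteins to acetylated histones, does to the response of dendritic cells to IgG immune complexes. Bone marrow of 5 wild-type C57BL/6 mice, called A to E here, was cultured for 8 days with 40 ng/mL GM-CSF, and cells of each mouse went into 4 conditions. These were DMSO with ovalbumin (DMSO Ova), DMSO with ovalbumin bound by IgG (DMSO IC), iBET at 3.3 µM with ovalbumin (iBET Ova) and iBET with the immune complex (iBET IC), each for 4 hours, which gave 20 libraries with 5 in each group. All groups therefore share the GM-CSF culture and the antigen, and Ova is the control for the antibody only. The labels name DMSO for the DMSO groups and give no solvent for the iBET groups, and they describe iBET as given together with the stimulus where the methods describe it as given beforehand, so the order of addition is uncertain. They also differ on whether cells were sorted before lysis. Libraries held 16447491 to 29245150 counts in genes (median 21764663). The 9 dendritic cell markers examined, among them Itgax and the class II gene H2-Aa, were all counted, with summed levels of 4634 to 9710 CPM (counts scaled to a library of 1000000, by TMM-scaled library sizes). The 7 macrophage markers were present as well and summed to 1018 to 2085 CPM, so the cultures held transcripts of both kinds. B cell and NK cell markers summed to at most 0.726 and 0.706 CPM.

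Checkpoint ligands on a dendritic cell are read by receptors on the T cell. PD-L1 and PD-L2 both bind PD-1, which dampens signalling from the T cell receptor, whereas ICOSL binds ICOS and costimulates. TIM-3 is a receptor that myeloid cells carry themselves, and galectin-9 is among its ligands. CD200 and CD200R1 form a pair of ligand and inhibitory receptor. CD155 binds the activating receptor DNAM-1 (Cd226) and the inhibitory receptor TIGIT. CD83 is a marker of mature dendritic cells that stabilises surface MHC class II and CD86.

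Cd274 and Pdcd1lg2 are neighbours. In GENCODE M21 on GRCm38, Cd274 lies at chr19:29367455-29388095 and Pdcd1lg2 at chr19:29410919-29471161, both on the plus strand, with 43464 bases between their start sites. The start site of Plgrkt, a plasminogen receptor gene on the opposite strand, is 65 bases from that of Cd274, so 1 promoter window holds both starts. The windows of these genes, and that of Havcr2 for comparison, are printed because the results below set their changes beside each other. Each is given from 250 bases before to 50 after the RefSeq start (GRCm38.p6, 5′ to 3′, plus strand). Capitals mark the stretch from the Plgrkt start to the Cd274 start in the first and motif matches in the last.
Cd274, chr19:29367188-29367487: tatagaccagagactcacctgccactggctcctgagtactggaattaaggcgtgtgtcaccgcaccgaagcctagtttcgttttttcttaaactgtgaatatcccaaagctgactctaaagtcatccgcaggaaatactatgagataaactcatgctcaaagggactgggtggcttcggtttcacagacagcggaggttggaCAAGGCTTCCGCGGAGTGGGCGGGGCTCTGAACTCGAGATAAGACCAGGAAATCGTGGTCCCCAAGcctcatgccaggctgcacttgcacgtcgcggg
Pdcd1lg2, chr19:29410669-29410968: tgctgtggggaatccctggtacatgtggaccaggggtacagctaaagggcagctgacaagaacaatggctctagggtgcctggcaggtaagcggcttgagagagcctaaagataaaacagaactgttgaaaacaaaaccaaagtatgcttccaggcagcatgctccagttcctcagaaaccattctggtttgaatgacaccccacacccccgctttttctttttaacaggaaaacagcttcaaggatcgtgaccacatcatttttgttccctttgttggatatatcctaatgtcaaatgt
Havcr2, chr11:46454681-46454980: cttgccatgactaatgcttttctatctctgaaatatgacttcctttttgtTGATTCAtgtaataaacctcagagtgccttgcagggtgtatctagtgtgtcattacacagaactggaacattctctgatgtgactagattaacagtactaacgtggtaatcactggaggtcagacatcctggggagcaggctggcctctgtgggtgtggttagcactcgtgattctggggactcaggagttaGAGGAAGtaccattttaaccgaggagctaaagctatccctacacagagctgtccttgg

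RefSeq promoter windows were at hand for 7 of the 10 genes (not Cd83, Cd200r1 or Pvr). Both strands were searched for 5 motifs: AP-1 (TGANTCA, in 7.81% of 32851 promoter windows of the same length), GAS (TTCNNNGAA, 8.3%), the ISRE core (GAAA blocks 2 bases apart, 3.44%), kappaB (GGG followed by TTCC after 3 bases, 5.56%) and a PU.1 core (GAGGAAG, 13.6%). The windows of Cd274, Pdcd1lg2 and Icosl held none of these letters. That of Havcr2 held an AP-1 match starting 200 bases before the start and a PU.1 core 8 bases before it. That of Lgals9 held 2 ISRE cores, which do not overlap each other, and a PU.1 core, and those of Cd200 and Cd276 each held a PU.1 core.

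The first comparison asks how iBET changed these transcripts under either stimulus. With iBET, 7 of the 9 genes tested fell and 1 rose in Ova, and 6 fell and 1 rose in IC (edgeR's quasi-likelihood test, Benjamini-Hochberg adjusted p under 0.05 over all genes tested). Pvr was the gene that rose. Over all genes tested, 56.6% passed in Ova (28.9% lower and 27.7% higher) and 56.1% in IC (29% lower and 27.1% higher), so passing was common. Large falls were less common over all genes: 5 of the 9 passed with a log2 fold change of -1 or lower under each stimulus, against 10% of genes in Ova and 9.68% in IC. The median log2 fold change of the 9 genes was -1.58 in Ova and -1.62 in IC, and that of all genes tested was -0.00287 and -0.00537. The genes were chosen with earlier results of these data known, so this comparison with all genes is a description only. For 8 of the 9 the iBET library was below the DMSO library of the same animal in 5 of 5, whichever the stimulus, and for Pvr it was above. The share of all genes with such agreement between mice was not counted, so this is no trait particular to the 9. With the mouse as a block, 68.7% of all genes passed in Ova and 68% in IC, in either direction. In these bulk cultures, fewer cells that carry a transcript and less of it per cell cannot be told apart. Macrophage markers summed to 1372 to 2053 CPM in DMSO Ova and 1018 to 1439 CPM in iBET Ova, where 3 of the 7 fell and 1 rose. In IC they summed to 1524 to 2085 CPM with DMSO and 1077 to 1673 CPM with iBET, where 2 fell and 1 rose. These ranges overlapped under both stimuli, and so did those of the summed dendritic cell markers in Ova (4634 to 7755 and 4779 to 7726 CPM). Of the 9 dendritic cell markers 3 fell under both stimuli and 0 rose, namely Flt3, a growth factor receptor (log2 fold change -3.66 in Ova and -2.91 in IC), Fscn1 (-2.09 and -2.06) and the transcription factor Batf3 (-1.75 and -2.08), and with the mouse as a block 6 fell under each stimulus and 1 rose in Ova and 2 in IC. The part of these markers in the changes described was not tested.

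**Figure D1:**
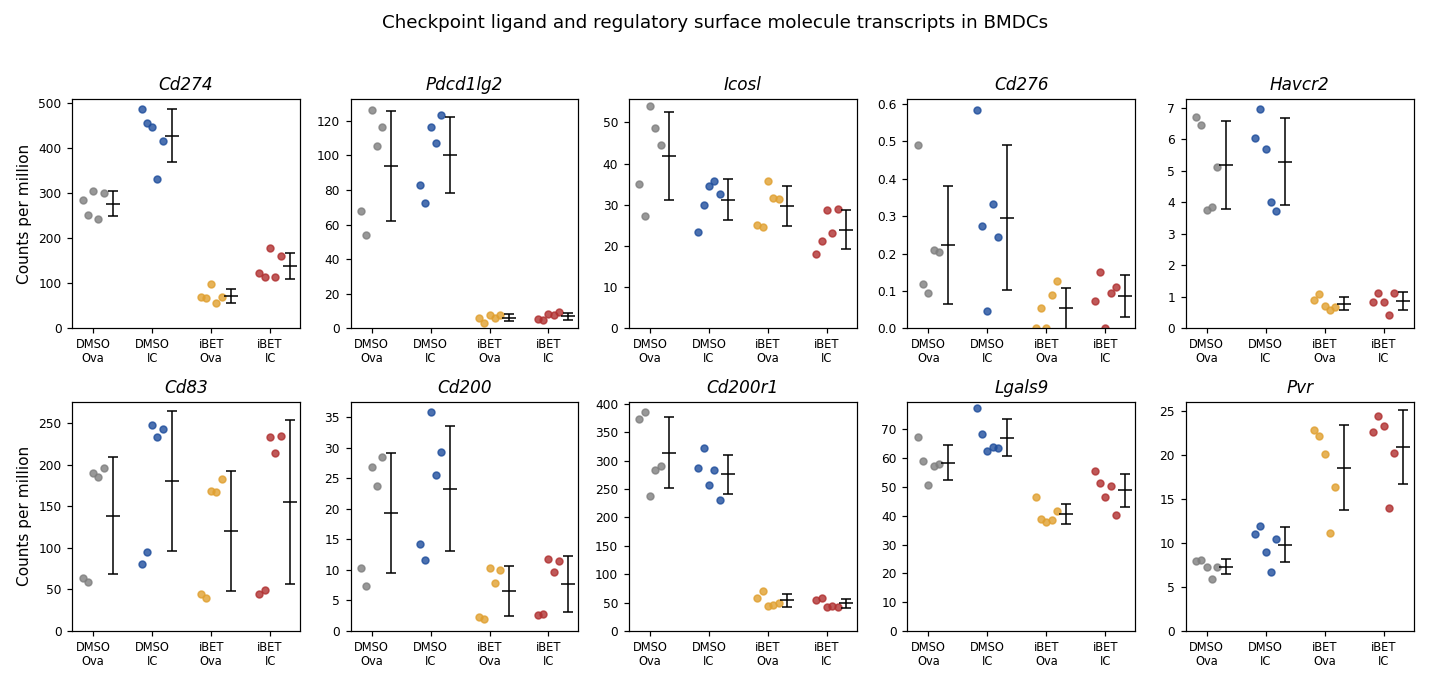
Level in CPM (linear axis from 0, own scale in each panel) of the 10 genes in the 4 groups. Each point is the library of 1 mouse, in the order A to E, and bars give the mean ± SD of 5. Pdcd1lg2 and Havcr2 were near the axis in both iBET groups, Pvr was higher in both, and Cd83 and Cd200 split into 2 and 3 mice in every group.

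Pdcd1lg2 had the largest fall of the genes described. In mice A to E it stood at 67.6, 53.8, 126, 105 and 116 CPM in DMSO Ova, and at 5.86, 3.25, 7.99, 5.94 and 7.74 CPM in iBET Ova. In DMSO IC the 5 values were 82.8, 72.2, 116, 107 and 123 CPM, and in iBET IC they were 5.33, 4.73, 8.18, 7.58 and 9.23 CPM. The groups were far apart under both stimuli. Its log2 fold change was -3.93 (SE 0.276, adjusted p = 4.79e-10 by edgeR) in Ova and -3.85 (SE 0.274, adjusted p = 5.26e-10 by edgeR) in IC. Of the 12465 log2 fold changes this was the 36th lowest in Ova and the 44th lowest in IC. The iBET libraries still held 60 to 185 counts of Pdcd1lg2. An antisense transcript that overlaps it, A930007I19Rik, had 6 to 25 counts per library.

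Cd274 fell less. It stood at 285, 251, 304, 243 and 299.7 CPM in DMSO Ova and at 68.8, 66.4, 97.8, 56.0 and 70.1 CPM in iBET Ova. With immune complexes the values were 486, 455, 446, 331 and 416 CPM in DMSO and 124, 115, 179, 115 and 161 CPM in iBET. Groups did not overlap under either stimulus. The log2 fold change was -1.95 (SE 0.151, adjusted p = 1.89e-09 by edgeR) in Ova and -1.62 (SE 0.149, adjusted p = 1.78e-08 by edgeR) in IC. The mean of iBET IC was 50.1% of the mean of DMSO Ova for Cd274, and 7.47% for Pdcd1lg2. An antisense gene annotated over Cd274 was not used here, and since the strand setting of the counting is not given, reads of the 2 cannot be told apart.

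The 2 ligands of PD-1 were set against each other within libraries, which removes the scaling between libraries but for the constant added. The log2 ratio of Pdcd1lg2 to Cd274 (each raw count plus 0.5) averaged -1.63 ± 0.481 (SD, n = 5) in DMSO Ova and -3.58 ± 0.465 in iBET Ova. In IC it averaged -2.11 ± 0.470 with DMSO and -4.32 ± 0.292 with iBET. With iBET the log2 ratio dropped by 1.95 in Ova and dropped by 2.21 in IC, and it was lower in each of the 5 mice. The exact two-sided permutation test of 5 against 5 gave p = 0.00794 for each, the smallest it can give, and an adjusted p of 0.0476 over the 12 ratio tests made. When signs were flipped within mice, the pairing that the animals provide, the smallest p possible was 0.0625 and the adjusted p was 0.0682, so the call was lost in a test that cannot reach the threshold.

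**Figure D2:**
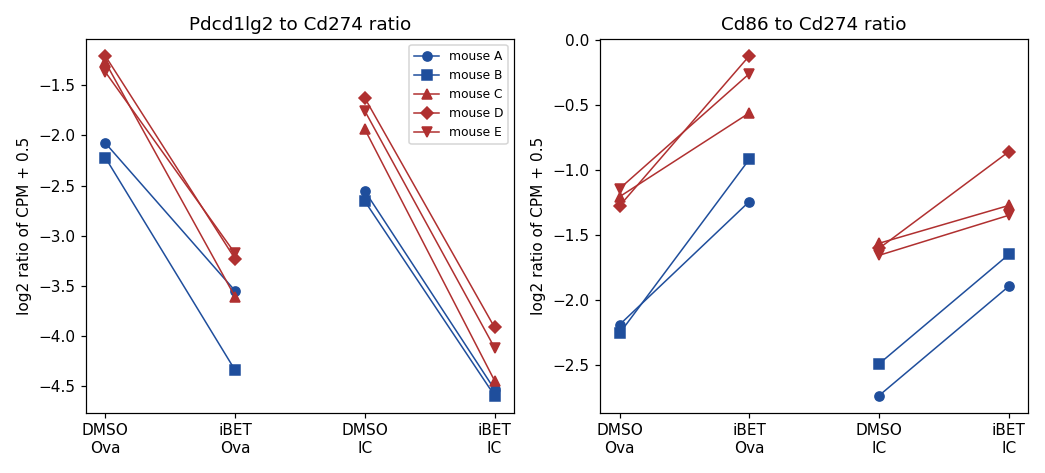
Log2 ratio of Pdcd1lg2 to Cd274 (left) and of Cd86 to Cd274 (right), each raw count plus 0.5, in the 4 groups. The axis label names CPM, but counts were used. A line joins the DMSO and iBET library of 1 mouse under 1 stimulus, with mice A and B in blue and C, D and E in red. All 5 lines fall on the left and rise on the right under each stimulus.

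The costimulatory ligand CD86 binds CD28 and CTLA-4. The log2 ratio of Cd86 to Cd274 went from -1.61 ± 0.558 to -0.62 ± 0.462 (SD, n = 5) in Ova and from -2.01 ± 0.558 to -1.40 ± 0.393 in IC, higher with iBET in 5 of 5 mice each time. The differences of 0.99 and 0.60 did not pass after adjustment (exact permutation p = 0.0238 and 0.103, adjusted p = 0.0714 and 0.206). For the ratio of Cd80 to Cd274 the difference was -0.49 in Ova and -0.64 in IC (exact permutation, adjusted p = 0.333 for both). Both Cd80 and Cd86 fell as transcripts themselves, as given further on.

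Genes around the pair on chromosome 19 changed by differing amounts. Of 5 neighbours tested, 3 fell and 1 rose with iBET in Ova, and 4 fell and 1 rose in IC, where 56.6% and 56.1% of all genes passed in one direction or the other. Plgrkt, which starts 65 bases from Cd274, had a log2 fold change of -0.40 (SE 0.0786, adjusted p = 0.000215 by edgeR) in Ova and -0.47 (SE 0.0784, adjusted p = 4.32e-05 by edgeR) in IC, beside -1.95 and -1.62 for Cd274 on the other side of the same window. The difference between these 2 genes was not tested. Jak2, a kinase of cytokine receptors which lies on the side of Cd274 away from Pdcd1lg2, fell with log2 fold changes of -1.02 in Ova (SE 0.33, adjusted p = 0.0127 by edgeR) and -0.997 in IC. Insl6, a relaxin family gene, fell with -0.49 and -0.66. On the far side of Pdcd1lg2, Ric1 had a log2 fold change of -0.09 in Ova (adjusted p = 0.116 by edgeR) and fell with -0.24 in IC, and Ermp1 rose with 0.66 and 0.68.

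**Figure D3:**
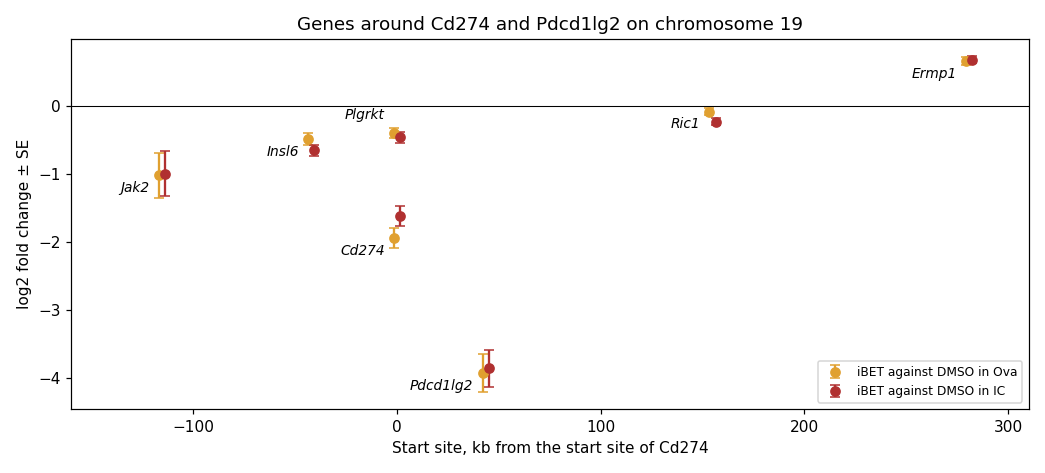
Log2 fold change of iBET against DMSO (points, with SE) in Ova and in IC for Cd274, Pdcd1lg2 and the 5 neighbours tested, by distance of the start site from that of Cd274 in kb along the chromosome. The points of the 2 stimuli are shifted slightly apart. Pdcd1lg2 and Cd274 lie lowest, with Plgrkt close to 0 at the same place as Cd274.

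Among the other B7 family ligands, Icosl fell by a small amount and Cd276 was scarcely counted. Icosl stood at 34.9, 27.2, 53.8, 48.6 and 44.5 CPM in DMSO Ova against 25.2, 24.5, 35.8, 31.5 and 31.5 CPM in iBET Ova. In IC it stood at 23.3, 30.05, 34.5, 35.8 and 32.6 CPM against 18.2, 21.1, 28.6, 23.0 and 28.9 CPM. The groups overlapped under both stimuli, although each mouse was lower with iBET. By edgeR the log2 fold change was -0.49 (SE 0.172, adjusted p = 0.019 by edgeR) in Ova and -0.39 (SE 0.173, adjusted p = 0.0636 by edgeR) in IC. With the mouse as a block the second also passed (adjusted p = 0.000829 by edgeR), and the first was lost without mouse C, D or E (adjusted p = 0.0562, 0.0779 and 0.0578 by edgeR). Cd276 averaged 0.224 and 0.296 CPM in DMSO Ova and DMSO IC and 0.0540 and 0.0864 CPM in iBET Ova and iBET IC, which rests on 75 counts over the 20 libraries and was not tested.

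Havcr2, the TIM-3 receptor, was a low transcript that fell strongly. It stood at 6.72, 6.46, 3.77, 3.85 and 5.13 CPM in DMSO Ova and at 0.889, 1.08, 0.700, 0.585 and 0.670 CPM in iBET Ova. The values in IC were 6.04, 6.94, 5.69, 4.00 and 3.74 CPM with DMSO and 0.851, 1.14, 0.828, 0.429 and 1.11 CPM with iBET. No iBET library reached the lowest DMSO library. This was a log2 fold change of -2.72 (SE 0.261, adjusted p = 3.17e-08 by edgeR) in Ova and -2.59 (SE 0.256, adjusted p = 4.87e-08 by edgeR) in IC, and the iBET values rest on 9 to 30 counts per library.

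Lgals9, whose product binds TIM-3 among other glycoproteins, fell by a modest amount. It stood at 67.5, 59.1, 50.6, 57.2 and 57.9 CPM in DMSO Ova and at 46.5, 39.0, 37.9, 38.6 and 41.7 CPM in iBET Ova. In IC the values were 77.6, 68.5, 62.4, 63.8 and 63.7 CPM with DMSO and 55.5, 51.6, 46.7, 50.5 and 40.3 CPM with iBET. The groups did not overlap, and the spread between mice was small. Its log2 fold change was -0.52 (SE 0.0902, adjusted p = 6.16e-05 by edgeR) in Ova and -0.46 (SE 0.0898, adjusted p = 0.000226 by edgeR) in IC. Of the 12465 log2 fold changes, 20.9% in Ova and 23% in IC were lower than that of Lgals9.

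Cd200r1, the inhibitory receptor of the CD200 pair, was among the most abundant of the 10 transcripts and fell under both stimuli. It stood at 372, 386, 238, 284 and 289.7 CPM in DMSO Ova and at 58.8, 70.3, 44.7, 45.7 and 49.2 CPM in iBET Ova. In IC the values were 287, 322, 257, 283 and 230.3 CPM against 55.5, 58.3, 42.7, 44.0 and 43.2 CPM. The groups were fully apart, with means 5.84 times higher in DMSO than in iBET in Ova and 5.66 times in IC. Its log2 fold changes were -2.55 (SE 0.154, adjusted p = 5.61e-11 by edgeR) and -2.50 (SE 0.154, adjusted p = 7.01e-11 by edgeR). Cd200r1 has close paralogues (Cd200r2, Cd200r3 and Cd200r4), and how reads shared between them were counted is not given.

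Cd200, the ligand, fell as well but with wide spread between mice. The 5 mice had 10.3, 7.41, 26.8, 23.6 and 28.5 CPM in DMSO Ova and 2.22, 2.01, 10.4, 7.88 and 9.92 CPM in iBET Ova. In IC they had 14.2, 11.6, 35.8, 25.6 and 29.3 CPM with DMSO and 2.55, 2.84, 11.8, 9.59 and 11.4 CPM with iBET. The groups overlapped because mice A and B with DMSO were near mice C, D and E with iBET, while each mouse fell. A log2 fold change of -1.58 (SE 0.526, adjusted p = 0.0149 by edgeR) was found in Ova and of -1.63 (SE 0.521, adjusted p = 0.0118 by edgeR) in IC. Without mouse D the call in Ova was lost (adjusted p = 0.0566 by edgeR).

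Cd83 did not pass in either comparison of the groups. It stood at 63.7, 59.0, 190.4, 185 and 196 CPM in DMSO Ova and at 44.2, 39.2, 169, 167 and 183 CPM in iBET Ova. In IC the values were 80.7, 94.997, 247, 233 and 243 CPM with DMSO and 45.0, 49.3, 233, 214 and 234 CPM with iBET. Each mouse was lower with iBET, A and B by more in proportion than C, D and E, most of all in IC, and mice A and B were below C, D and E in every group. The log2 fold change was -0.21 (SE 0.55, 95% interval -1.35 to 0.94, adjusted p = 0.771 by edgeR) in Ova and -0.22 (SE 0.549, adjusted p = 0.756 by edgeR) in IC. With the mouse as a block it was -0.30 (adjusted p = 0.0305 by edgeR) and -0.40 (adjusted p = 0.00523 by edgeR), and both passed. With the block 8 of the 9 genes fell and 1 rose under each stimulus, where 68.7% of all genes passed in Ova and 68% in IC.

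Pvr rose under both stimuli. It stood at 7.96, 8.12, 7.30, 5.88 and 7.28 CPM in DMSO Ova and at 22.9, 22.2, 20.1, 11.2 and 16.4 CPM in iBET Ova. In IC it stood at 11.0, 12.0, 9.01, 6.75 and 10.4 CPM with DMSO and at 22.6, 24.5, 23.3, 14.0 and 20.2 CPM with iBET. Every iBET library was above every DMSO library of the same stimulus, and mouse D was the lowest in each of the 4 groups. Its log2 fold change was 1.34 (SE 0.191, adjusted p = 5.97e-06 by edgeR) in Ova and 1.09 (SE 0.187, adjusted p = 5.44e-05 by edgeR) in IC, the 338th and 561st highest of 12465. Genes annotated on the opposite strand overlap Pvr and were not used here.

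Groups did not overlap between iBET and DMSO for 6 of the 9 genes under each stimulus, namely Cd274, Pdcd1lg2, Havcr2, Cd200r1 and Lgals9, which were lower, and Pvr, which was higher. Over all genes tested, 19.5% did not overlap and were lower in Ova and 21.6% in IC, and 18.5% and 21.1% did not overlap and were higher.

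**Figure D4:**
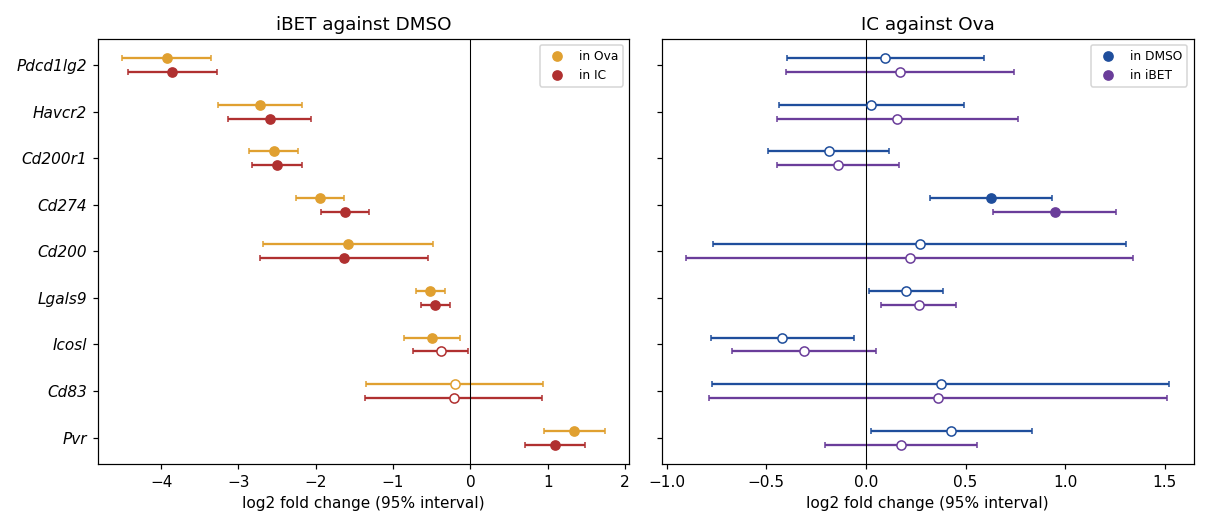
Log2 fold changes with 95% intervals from edgeR for the 9 genes tested, iBET against DMSO in Ova and IC (left) and IC against Ova in DMSO and iBET (right, a narrower scale). Filled points passed an adjusted p of 0.05 and open points did not. On the left 7 genes in Ova and 6 in IC lie below 0 with filled points, and on the right only Cd274 is filled.

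The second comparison asks what the immune complex added to ovalbumin, with DMSO and with iBET. Cd274 was the only one of the 9 genes that passed, and it rose under both treatments. Its log2 fold change of IC against Ova was 0.63 (SE 0.146, adjusted p = 0.00511 by edgeR) with DMSO and 0.95 (SE 0.148, adjusted p = 0.00034 by edgeR) with iBET. It was higher in 5 of 5 mice each time, and the groups of 5 did not overlap. Over all genes tested, 20.3% passed with DMSO (10.7% lower and 9.59% higher) and 11.8% with iBET (6.63% lower and 5.19% higher), and groups did not overlap with IC higher for 5.97% and 4.57%. The rise of Cd274 ranked 347th highest of 12465 with DMSO and 98th highest with iBET. In mice C, D and E alone the rise with DMSO was 0.51 and did not pass (adjusted p = 0.0633 by edgeR).

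Pdcd1lg2, in contrast to its neighbour, had a log2 fold change of 0.10 (95% interval -0.40 to 0.59) with DMSO, which turned to -0.02 when libraries were scaled by their totals alone, and of 0.17 (95% interval -0.40 to 0.74) with iBET. Neither passed (adjusted p = 0.826 and 0.758 by edgeR). The within-library log2 ratio of Pdcd1lg2 to Cd274 was lower in IC in 5 of 5 mice, with a difference of -0.48 with DMSO (exact permutation p = 0.159, adjusted p = 0.238) and -0.74 with iBET (exact permutation p = 0.0238, adjusted p = 0.0714).

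Smaller differences between the stimuli appeared when the mouse was a block, where 5 of the 9 genes were higher and 2 lower in IC with DMSO, against 38.1% of all genes that passed, and 3 were higher and 1 lower with iBET, against 28.9%. With DMSO these were, beside Cd274, Cd83 at 0.42 (adjusted p = 0.00836 by edgeR), Pvr at 0.41 (adjusted p = 0.00115 by edgeR), Cd200 at 0.32 (adjusted p = 0.0449 by edgeR) and Lgals9 at 0.20 (adjusted p = 0.00758 by edgeR). Icosl was lower, at -0.40 (adjusted p = 0.00144 by edgeR), and so was Cd200r1, at -0.17 (adjusted p = 0.0398 by edgeR). With iBET the block gave Cd83 at 0.32 (adjusted p = 0.0489 by edgeR), Lgals9 at 0.26 (adjusted p = 0.00205 by edgeR) and Icosl at -0.31 (adjusted p = 0.0138 by edgeR). Havcr2 passed in neither fit, with log2 fold changes of 0.03 with DMSO, negative in some alternatives, and 0.16 with iBET.

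Whether iBET altered the response to the immune complex was tested as an interaction. None of the 9 genes passed by edgeR, and none had an unadjusted p under 0.05. DESeq2 also called 0. With the mouse as a block 0 passed in either tool and 1 gene, Cd274, had an unadjusted p under 0.05 in each. Over all genes 0.0401% passed (5 genes), and 0.818% with the block. For Cd274 the rise was larger with iBET by 0.32 on the log2 scale (SE 0.206, 95% interval -0.11 to 0.75, adjusted p = 1 by edgeR), in 4 of 5 mice. That interval, from the fit without the mouse, leaves room for a slightly smaller rise with iBET, for no difference and for a rise larger by up to 0.75. With the mouse as a block the difference was also 0.32 (SE 0.126, adjusted p = 0.304 by edgeR).

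The order of the transcripts by level changed with iBET. Levels between genes are compared as CPM per kb of exon, with exons joined over all annotated transcripts of a gene. In DMSO Ova the order was Cd200r1 (93.8 ± 18.8, SD, n = 5), Cd274 (76.3 ± 7.75), Cd83 (54.0 ± 27.5), Pdcd1lg2 (47.9 ± 16.1), Lgals9 (27.4 ± 2.83), Icosl (9.05 ± 2.32), Cd200 (5.82 ± 2.95), Havcr2 (1.91 ± 0.512), Pvr (1.19 ± 0.144) and Cd276 (0.0612 ± 0.0432). The means of Cd200r1 and Cd274 differed by less than the SD of the first, as did those of Cd83 and Pdcd1lg2. In iBET Ova the order was Cd83 (46.8 ± 28.1), Cd274 (19.8 ± 4.29), Lgals9 (19.1 ± 1.64), Cd200r1 (16.1 ± 3.22), Icosl (6.43 ± 1.04), Pdcd1lg2 (3.14 ± 0.969), Pvr (3.03 ± 0.790), Cd200 (1.95 ± 1.23), Havcr2 (0.289 ± 0.0737) and Cd276 (0.0148 ± 0.0151). Cd274 and Lgals9 did not differ beyond their spread there, nor did Pdcd1lg2 and Pvr. The first place of Cd83 came from mice C, D and E, where it averaged 67.2 CPM per kb. In A and B it averaged 16.2 CPM per kb in iBET Ova, below Cd274, Lgals9 and Cd200r1 (18.7 or more), and in DMSO Ova 23.9 CPM per kb, below Pdcd1lg2 and Lgals9 (29.6 or more). With immune complexes Cd274 was the highest in DMSO, at 118 ± 16.3 CPM per kb, and in iBET IC it stood second to Cd83, at 38.2 ± 8.11 against 60.2 ± 38.4 CPM per kb, but this order too held only in C, D and E (41.8 against 88.2 CPM per kb), and in A and B Cd274 was the higher (32.9 against 18.3 CPM per kb).

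The 5 mice fell into the same 2 sets for several of these genes. Cd83, Cd200, Pdcd1lg2 and Icosl were higher in mice C, D and E than in A and B in each of the 4 groups with no overlap. The ratio of means was 2.75 to 4.81 for Cd83, 2.35 to 4.44 for Cd200, 1.49 to 1.91 for Pdcd1lg2 and 1.28 to 1.58 for Icosl. Cd200r1 was lower in C, D and E in all 4 groups, with ratios of 0.713 to 0.844, and Cd274 overlapped between the sets in 3 of the 4 groups. These sets were seen in the data and are named by no label, so no test between them was made, and the sex of each mouse was not used here. Markers moved with them: Fscn1, which encodes fascin of mature dendritic cells, stood at 77.6 and 87.2 CPM in A and B and at 330 to 456 CPM in C, D and E in DMSO Ova. The summed dendritic cell markers were higher in C, D and E (6510 to 7755 against 4634 to 4995 CPM in DMSO Ova), and the summed macrophage markers were lower (1372 to 1593 against 1938 to 2053 CPM). Eosinophil markers summed to 98.6 to 115 against 45.8 to 51.5 CPM. The part of these differences in the levels of the genes described was not tested. When iBET was compared with DMSO within each set, Cd83 had log2 fold changes of -0.56 in Ova (adjusted p = 0.00392 by edgeR) and -0.88 in IC (adjusted p = 0.000317 by edgeR) in A and B, and of -0.09 (adjusted p = 0.223 by edgeR) and -0.06 (adjusted p = 0.409 by edgeR) in C, D and E. The sets were seen in these same levels, with Cd83 among the genes that split them, and A and B are 2 mice. These p-values are therefore descriptive, and the difference between the sets was not tested.

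**Figure D5:**
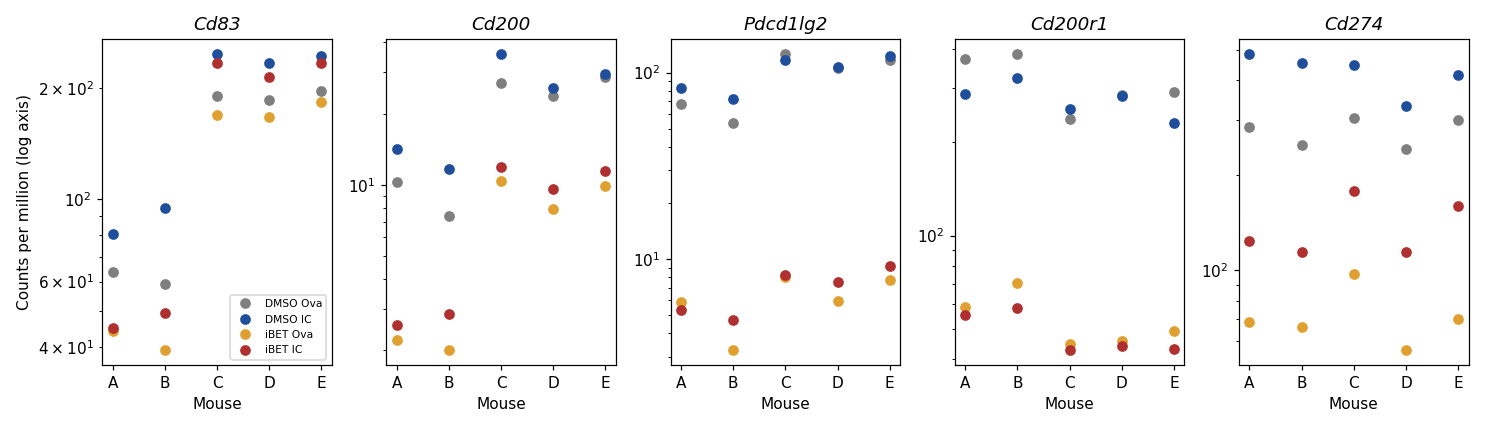
Level in CPM (log axis, own scale in each panel) of Cd83, Cd200, Pdcd1lg2, Cd200r1 and Cd274 in each mouse, coloured by group. Mice are categories without order. Cd83, Cd200 and Pdcd1lg2 are lower in A and B in every group, Cd200r1 is higher there, and Cd274 shows no such split in 3 of the 4 groups.

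The genes that act with these molecules were taken as lists. Of 8 counter-receptors tested, 3 fell and 2 rose with iBET under both stimuli, near the shares of all genes (28.9% lower and 27.7% higher in Ova, 29% and 27.1% in IC). Pdcd1, the receptor of both PD-1 ligands, averaged 0.911 ± 0.300 (SD, n = 5) CPM in DMSO Ova and 0.0548 ± 0.0554 CPM in iBET Ova, and its log2 fold change was -3.91 in Ova (adjusted p = 1.79e-06 by edgeR) and -4.16 in IC (adjusted p = 6.29e-07 by edgeR), on at most 33 counts per library. Cd28, the costimulatory receptor of CD80 and CD86, fell with log2 fold changes of -3.68 and -3.43, and Cd226, a receptor of CD155, with -1.47 and -1.17. Pdcd1, Cd28 and Cd226 are known mainly from T cells and NK cells. The T cell genes Cd3e, Cd3d, Cd3g and Cd4 had 4, 8, 7 and 5 counts in all 20 libraries together, and Cd8a, Cd2 and Lck had 66, 71 and 204. The T cell markers summed to 0.771 to 1.66 CPM in DMSO Ova and 0.209 to 0.705 CPM in iBET Ova, of which Lck supplied most counts. Lck fell in Ova (log2 fold change -1.34, adjusted p = 0.0272 by edgeR) and did not pass in IC (-0.63, adjusted p = 0.286 by edgeR). The NK cell markers summed to 0.113 to 0.706 CPM in DMSO Ova and 0 to 0.0808 CPM in iBET Ova. The part of such cells in the changes of these receptors was not tested. Cd28 was also higher in IC than in Ova, by 0.77 with DMSO (adjusted p = 0.00444 by edgeR) and by 1.02 with iBET (adjusted p = 0.0151 by edgeR).

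All 3 of the other B7 family genes tested fell under both stimuli, where 28.9% of all genes fell in Ova and 29% in IC. Cd80 had log2 fold changes of -2.60 in Ova (SE 0.472, adjusted p = 9.8e-05 by edgeR) and -2.27 in IC, Cd86 of -1.01 and -1.02, and 4632428N05Rik, an older symbol of Vsir, which encodes the inhibitory ligand VISTA, of -0.90 and -0.64. The nectin family and its T cell receptors, to which Pvr belongs, were set against the same shares. Of these genes, Cd226 again among them, 4 of 4 tested fell in Ova and 3 of 4 in IC. The other in IC, Pvrl1 (nectin-1), had a log2 fold change of -0.81 (adjusted p = 0.0921 by edgeR) and passed with the mouse as a block (adjusted p = 0.000167 by edgeR). Pvrl4 (nectin-4) had log2 fold changes of -2.69 and -2.56 and Pvrl2 (nectin-2, also a ligand of DNAM-1) of -1.02 and -0.99. The rise of Pvr was shared by 0 of these 4.

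Of the 5 galectins and galectin-binding genes tested, 2 fell and 0 rose under both stimuli, against 28.9% of all genes lower and 56.6% passing in Ova and 29% and 56.1% in IC. Lgals8 had log2 fold changes of -0.75 and -1.02, and Lgals3 of -0.33 and -0.31. Lgals1 and Lgals3 rose with the immune complex, Lgals3 by 0.41 with DMSO (adjusted p = 0.00802 by edgeR) and by 0.43 with iBET (adjusted p = 0.00909 by edgeR). Of the 3 other TIM family genes listed, 0 had enough counts to be tested.

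The list of CD200 receptor relatives and signalling partners had 5 of 6 genes lower under both stimuli and Rasa1 passing in neither. Over all genes tested, 28.9% were lower in Ova and 29% in IC. Dok2, the adaptor that CD200R1 recruits, averaged 108 ± 15.0 (SD, n = 5) CPM in DMSO Ova and 10.8 ± 0.901 CPM in iBET Ova. Its log2 fold change was -3.32 (SE 0.11, adjusted p = 1.55e-14 by edgeR) in Ova and -2.79 (SE 0.11, adjusted p = 1.13e-13 by edgeR) in IC. Dok2 was also lower in IC than in Ova, with -0.93 with DMSO (adjusted p = 3.26e-06 by edgeR) and -0.40 with iBET (adjusted p = 0.0229 by edgeR). The difference of these, 0.53 on the log2 scale and in the same direction in each of the 5 mice, did not pass as an interaction (adjusted p = 0.469 by edgeR) but did with the mouse as a block (adjusted p = 0.0106 by edgeR). The paralogues Cd200r2 and Cd200r3 had log2 fold changes of -2.24 and -2.10 in Ova and -1.98 and -1.66 in IC. Markers of mast cells and basophils, which express Cd200r3, summed to 5.10 to 12.8 CPM in DMSO Ova and 2.66 to 5.77 CPM in iBET Ova, with 2 of the 5 tested and 1 of them lower, and their part in the fall of these receptors was not tested.

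Of 4 genes listed as surface stability partners, 1 fell under both stimuli and 3 passed in neither. March1, a ubiquitin ligase of MHC class II and CD86, neither of them among the 10 genes, was the gene that fell. Its log2 fold changes were -2.49 in Ova (SE 0.172, adjusted p = 3.85e-10 by edgeR) and -2.65 in IC. Cmtm6, which keeps PD-L1 from degradation, had log2 fold changes of 0.29 and 0.26 that did not pass (adjusted p = 0.059 and 0.0847 by edgeR) but did with the mouse as a block (adjusted p = 6.27e-05 and 0.000168 by edgeR). This gene was named after its values were seen. Of 12 other inhibitory surface molecules of myeloid cells tested, 9 fell and 1 rose in Ova, and 8 fell (9 with the mouse as a block) and 1 rose in IC. Cd244 (2B4) had log2 fold changes of -3.64 and -3.26, Siglecg of -2.34 and -1.96, and Lair1, a collagen receptor, of -2.07 and -1.83. With iBET, Cd244 rested on 10 to 37 counts per library and Siglecg on 1 to 15. Lag3, which binds MHC class II, was the gene that rose, with 0.97 (adjusted p = 0.0267 by edgeR) and 1.27 (adjusted p = 0.00702 by edgeR). It had 1 to 18 counts per library over the 4 groups. These shares stand against the 28.9% of all genes that fell in Ova and the 29% that fell in IC.

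For 8 of the 9 genes the most similar profiles are given, sought among 8372 other genes with a mean of at least 10 CPM, by the root mean square difference of centred log2 CPM over the 20 libraries. Cd83 was closest to Ccr7, the chemokine receptor that guides dendritic cells to lymph nodes (0.157), and to Tspan13 (0.208). Cd274 was closest to Cd300lf (0.255) and Kcnn4 (0.261), and Pdcd1lg2 to Serpinb9 (0.309) and Sla (0.426). Havcr2 was closest to the chemokine receptor Ccr1 (0.215) and to March1 (0.287). The closest to Cd200 were Adcy6 (0.239) and Slc22a23 (0.258), and to Icosl St3gal4 and Tyk2 (0.152 for both). Lgals9 was closest to Tgfbr2 (0.0866) and Cdc16 (0.0889), and Pvr to Lonrf3 (0.198) and Snx18 (0.204). The 20 libraries differ in treatment, stimulus and mouse, and the measure takes in all of these at once. It also depends on how much a gene varies, so distances are not to be ranked between genes. The root mean square of a gene's own centred log2 CPM was 0.300 for Lgals9, 0.385 for Icosl, 0.958 for Cd83 and 1.98 for Pdcd1lg2.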

How the data were processed

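Total RNA of BMDCs was made into stranded libraries and sequenced by the authors, who trimmed reads with Trim Galore, aligned them to mm10 with HISAT2 and counted them per gene with featureCounts. The deposited counts are raw read counts per gene. A second deposited table, the normalized signal, is those counts divided by 1 factor per library. The annotation, strand setting and versions are not given in the sources used here.

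Groups were read from the labels. Counts were filtered with filterByExpr, scaled by TMM and fitted by edgeR's quasi-likelihood method (edgeR 4.0.16, R 4.3.3), the group being the single factor over 20 libraries. CPM and their SDs use the TMM-scaled library sizes, and the within-library log2 ratios use raw counts plus 0.5. Replicate pairs differed beyond counting noise. All 4 libraries of a mouse come from 1 animal, and the 30 same-mouse pairs deviated together (correlation at least 0.307, mean 0.524), so the mouse was added as a block in an alternative. DESeq2 1.42.0, limma 3.58.1 and sva 3.50.0 gave other alternatives. The 10 genes and the lists were chosen with earlier results of these data known. All 10 are named, and of each companion list the 3 genes with the largest mean change among those passing under both stimuli. The profiles most like that of Cd200r1 are not reported here. The test was also run on simulated counts drawn without a mouse effect, so that check does not cover the correlation between libraries of 1 mouse.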

Additional observations from a re-analysis of the deposited data

How the results depend on the processing

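With iBET against DMSO, 135 of 144 values of single genes kept their direction and side of the threshold in Ova and 135 of 144 in IC, with 0 reversals, and the counts of genes passing stayed within 1.5 times. In mice A and B alone the fall of Icosl in Ova did not pass (-0.33, adjusted p = 0.129 by edgeR). For IC against Ova 1 gene passed with DMSO, and 7 did with the mouse as a block in edgeR or in DESeq2, 2 with library totals only, 3 with surrogate variables, 3 in mice A and B, 2 in mice C, D and E, 0 when log2 fold changes also had to reach 1 in size, and 1 to 2 with each mouse left out. With iBET it was 1 gene, and 4 with the block in either tool, 2 by DESeq2 without it, 3 with surrogate variables, 2 in mice C, D and E, 0 at that fold, and 1 to 2 with each mouse left out. The block changed no call of these genes other than those given above. Library totals shifted the median of all genes from -0.02 to -0.13 (IC against Ova, DMSO) and from -0.01 to -0.12 (iBET). The log2 ratio of Pdcd1lg2 to Cd274 lost its call under sign flips within mice (-1.95 in Ova, -2.21 in IC) and with each mouse left out (-2.07 to -1.86 in Ova, -2.28 to -2.14 in IC), when the smallest p possible is larger.

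Reversals were confined to values near 0 that passed no test. For IC against Ova with DMSO, Pdcd1lg2 turned to -0.0166 with library totals, and Havcr2 to -0.0784 with library totals, -0.0410 with surrogate variables, -0.0324 in mice A and B and -0.0919 to 0.126 with each mouse left out. The interaction turned with surrogate variables for Cd83 (0.00699) and Cd200 (0.0190), in mice C, D and E for Cd83 (0.0296), Cd200 (0.00125) and Cd200r1 (-0.0487), and in mice A and B for Pdcd1lg2 (-0.214) and Icosl (-0.0950). With each mouse left out it ranged from -0.0658 to 0.00822 for Cd83, -0.118 to 0.00430 for Cd200, -0.0228 to 0.0925 for Cd200r1 and -0.113 to 0.238 for Havcr2. The cause was not tested. Counts were low for Cd276 (0 to 13 per library) and, with iBET, for Havcr2 (9 to 30 per library).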
